A study of Mus musculus with 6 samples.

Results

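The genes of arginine and polyamine metabolism were examined in RNA-seq of mouse CD8T cells after coculture. They comprise 10 genes chosen by name from the 54532 genes of the count table, namely the arginases Arg1 and Arg2, the inducible nitric oxide synthase Nos2, the citrulline-recycling enzymes Ass1 and Asl, ornithine decarboxylase (Odc1) and its regulator Azin1, the polyamine synthases Srm and Sms, and the polyamine acetyltransferase Sat1. All 10 were found, 1 row each. In the control group, spleen CD8T cells that beads carrying anti-CD3/CD28 had activated spent 24 hr in coculture with macrophages exposed to IFN-γ (10 ng/mL, 12 hr) but not to DB2313. In the DB2313 group, the macrophages had also received DB2313, which inhibits the myeloid transcription factor Spi1, at the 14 nM that the methods give. The macrophages are described in the methods as thioglycolate-induced peritoneal cells. GEO's labels call the partner cells DC where the paper has macrophages, while the split by DB2313 is the same in both. Each group held 3 samples. Neither source says that these came from separate cultures or animals, so p-values measure the spread between these samples, which may be technical.

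Arginine is shared among competing enzymes. Arginases split it into ornithine and urea, whereas nitric oxide synthases turn it into nitric oxide and citrulline, and macrophages exposed to IFN-γ are known for inducing Nos2. Citrulline is rebuilt into arginine by Ass1 and then Asl. Ornithine is decarboxylated by Odc1 to putrescine, from which Srm makes spermidine and Sms makes spermine. Sat1 acetylates these polyamines for export or breakdown. Activated T cells are known to raise polyamine synthesis as they divide.

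Between 16611975 and 18596217 reads were counted on genes in each library. The 10 genes together took 0.102% to 0.104% of the counts in the control libraries and 0.0931% to 0.0945% in the DB2313 libraries. Values are given as CPM, counts scaled to a common library size with TMM, a scaling that assumes most genes do not change. RNA of more than one cell type was present. A list of 20 T cell markers, none of which was at 0, took 0.377% to 0.383% of each control library and 0.607% to 0.613% of each DB2313 library. A list of 20 macrophage markers, again none at 0, took 1.12% to 1.15% and 0.426% to 0.437%. Fewer cells of a type, less RNA per cell and lower expression of the marker genes themselves cannot be told apart in such samples. The macrophage list includes Spi1, the target of DB2313, which had a log2 fold change of -0.88. Over that list the log2 fold changes ran from -2.16 to 1.44. The part of these shares in the results below was not tested.

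At an adjusted p below 0.05 in edgeR's quasi-likelihood test, 3 of the 10 genes were higher and 6 were lower in the DB2313 group than in the control group, and Azin1 was not called. Among all 14883 tested genes, 45.4% were called, 20.8% as higher and 24.6% as lower. The genes that use or rebuild arginine (Nos2, Arg1, Arg2, Ass1 and Asl) and the polyamine acetyltransferase Sat1 were the lower ones. The polyamine-making enzymes Odc1, Srm and Sms were the higher ones, by at most 1.22-fold. These directions are those under TMM: with libraries scaled to the T cell markers Odc1, Srm and Sms were lower, and with the macrophage markers Arg2, Ass1, Asl and Sat1 were higher and Arg1 was not called. The macrophage scaling uses summed counts, which rest largely on Lyz2, the most abundant marker of that list. Under TMM the CPM ranges of the groups did not overlap for any of the 10 genes, which also held for 53.1% of all tested genes. With an absolute log2 fold change over 1 required as well, Arg1, Arg2 and Nos2 were still called lower, and 0 genes of the list were called higher, against 6.67% of all tested genes (5.3% as lower and 1.37% as higher). Arg2 was just past that fold, and without control replicate 1, DB2313 replicate 2 or DB2313 replicate 3, an alternative added after the data were seen, Nos2 was the 1 gene left (2 genes without control replicate 3). The median log2 fold change was -0.38 over the 10 genes and 0.019 over all tested genes.

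**Figure D1:**
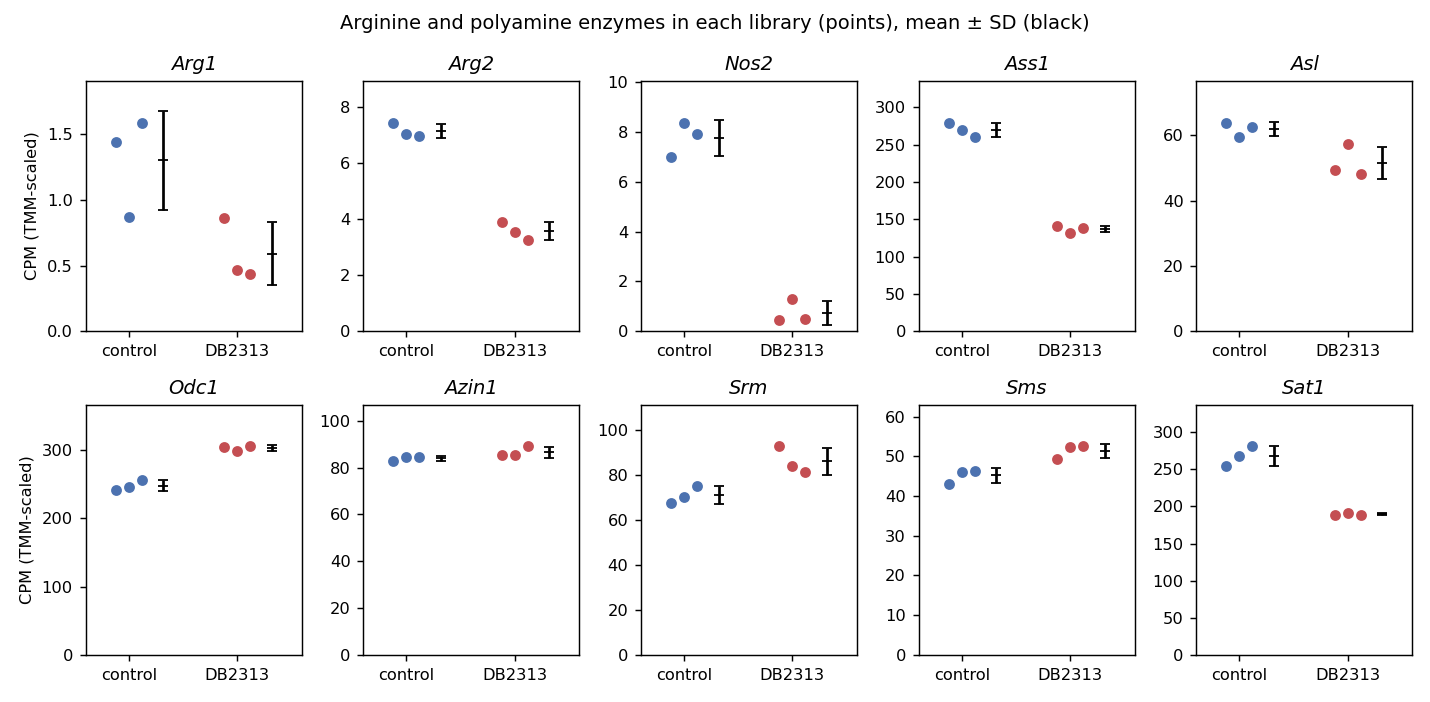
CPM of each of the 10 genes (vertical axes, each from 0) in the 3 control libraries (blue points) and the 3 DB2313 libraries (red points), with the mean ± SD in black. Nos2 lay at 6.98 CPM or more in each control library and at 1.29 CPM or less in each DB2313 library, whereas the groups nearly touched for Azin1 and Arg1.

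Nos2 (ENSMUSG00000020826), the enzyme that makes nitric oxide in activated macrophages, lies on the plus strand of GRCm38 at chr11:78920787-78960254. The control libraries held 126, 144 and 130 Nos2 counts, and the DB2313 libraries held 8, 22 and 9. All 3 control libraries were thus far above the DB2313 libraries, and DB2313 replicate 2 held more Nos2 counts than the other 2 of its group together. Scaled, Nos2 averaged 7.77 ± 0.714 CPM without DB2313 and 0.737 ± 0.479 CPM with it (SD, n = 3 each). It fell by 90.6%, a log2 fold change of -3.41 (standard error 0.27, adjusted p = 2.39e-10, edgeR), and only 0.255% of all tested genes had a lower log2 fold change. Without each library in turn, the Nos2 log2 fold change stayed between -4.05 and -3.14. The other nitric oxide synthases, Nos1 and Nos3, had no more than 3 counts in any library and were not tested.

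Arg1 (ENSMUSG00000019987), the cytosolic arginase, lies on the minus strand at chr10:24915221-24927484. It was scarce, with 26, 15 and 26 counts in the control libraries and 16, 8 and 8 in the DB2313 libraries. The counts themselves overlapped, since control replicate 2 had fewer than DB2313 replicate 1, and after scaling these libraries stood at 0.873 and 0.866 CPM. The group means of Arg1 were 1.30 ± 0.378 and 0.59 ± 0.24 CPM (SD, n = 3 each), with a log2 fold change of -1.12 (standard error 0.41, adjusted p = 0.0287, edgeR). This call did not hold with DESeq2 (log2 fold change -1.14, adjusted p = 0.102). In edgeR it was also lost without control replicate 1 (-1.04), control replicate 3 (-0.96), DB2313 replicate 2 (-0.99) or DB2313 replicate 3 (-0.94), with adjusted p values of 0.10 to 0.12.

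Arg2 (ENSMUSG00000021125), the mitochondrial arginase, lies on the plus strand at chr12:79130777-79156301. Its counts were 134, 121 and 114 in the control libraries and 72, 60 and 60 in the DB2313 libraries, with no overlap. Arg2 stood at 7.14 ± 0.248 and 3.56 ± 0.321 CPM (SD, n = 3 each), a level 2.01-fold lower (log2 standard error 0.16, range of the log2 fold change -1.08 to -0.94 without each library in turn, adjusted p = 2.01e-05, edgeR). The last 285 bases of Arg2 overlap Vti1b on the opposite strand, which had 3929 control counts and 3806 DB2313 counts in all. Whether the counting used the strand is not given in the sources used here, so reads in this overlap could belong to either gene. Vti1b itself was at -0.11 on the log2 scale (standard error 0.05) and was not called.

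Ass1 (ENSMUSG00000076441), which joins citrulline and aspartate to argininosuccinate, lies on the plus strand at chr2:31470207-31520672. Ass1 counts were 5040, 4629 and 4254 without DB2313, and with it 2602, 2252 and 2544. Every control library was well above every DB2313 library. Ass1 went from 269.5 ± 9.73 to 137 ± 4.57 CPM (SD, n = 3 each), a log2 fold change of -0.98 (standard error 0.04, adjusted p = 6.53e-16, edgeR). Asl (ENSMUSG00000025533), which cleaves argininosuccinate into arginine and fumarate, lies on the minus strand at chr5:130011258-130029247. Its counts were 1153, 1025 and 1026 in the control libraries and 912, 977 and 885 in the DB2313 libraries. The fall of Asl was smaller, from 62.1 ± 2.19 to 51.6 ± 4.96 CPM (SD, n = 3 each), a log2 fold change of -0.27 (standard error 0.06, adjusted p = 0.00132, edgeR). DB2313 replicate 2, at 57.3 CPM, came closest to the lowest control library, at 59.6 CPM.

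Polyamine synthesis starts with Odc1 (ENSMUSG00000011179), which lies on the plus strand at chr12:17544794-17551505. The control libraries held 4360, 4231 and 4198 Odc1 counts, and the DB2313 libraries held 5635, 5096 and 5622. All DB2313 libraries were above all control libraries, at 298.6 to 305.5 CPM against 241.6 to 256.4 CPM. The Odc1 group means were 248 ± 7.59 and 303 ± 3.85 CPM (SD, n = 3 each), a log2 fold change of 0.29 under TMM (standard error 0.03, adjusted p = 2.35e-07, edgeR). Azin1 (ENSMUSG00000037458, minus strand at chr15:38487427-38519266) encodes an antizyme inhibitor, a relative of ornithine decarboxylase without its activity that shields it from degradation. Azin1 counts were 1493, 1453 and 1381 without DB2313 and 1575, 1453 and 1638 with it, or 83.9 ± 0.99 and 86.5 ± 2.2 CPM (SD, n = 3 each). For Azin1 the log2 fold change was 0.044, with a 95% confidence interval from -0.047 to 0.14 (adjusted p = 0.441, edgeR), although the highest control library, at 84.5 CPM, was just below the lowest DB2313 library, at 85.2 CPM.

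Srm (ENSMUSG00000006442, plus strand at chr4:148591503-148594993) encodes spermidine synthase. Srm counts were 1221, 1209 and 1234 without DB2313, and with it 1716, 1440 and 1497. Under TMM, Srm was higher in each DB2313 library than in any control library, with 71.1 ± 3.92 and 86.2 ± 5.98 CPM (SD, n = 3 each) and a log2 fold change of 0.28 (standard error 0.05, adjusted p = 0.000199, edgeR). Sms (ENSMUSG00000071708, minus strand at chrX:157443855-157492287) encodes spermine synthase. The control libraries held 778, 792 and 759 Sms counts, and the DB2313 libraries held 913, 895 and 966. Under TMM the rise of Sms was the smallest of the called ones, from 45.2 ± 1.8 to 51.5 ± 1.76 CPM (SD, n = 3 each), a log2 fold change of 0.19 (standard error 0.06, adjusted p = 0.0138, edgeR). Without control replicate 1 it was 0.16 and no longer called (adjusted p = 0.0727, edgeR). A processed copy of Sms, Sms-ps, had 717 control counts and 973 DB2313 counts in all, so the division of reads between these copies is uncertain. With the counts of Sms and Sms-ps added together, an alternative chosen after the data were seen, the log2 fold change was 0.23 (standard error 0.05).

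Sat1 (ENSMUSG00000025283), the enzyme that marks spermidine and spermine for removal, lies on the minus strand at chrX:155213132-155216449. Sat1 counts were 4596, 4614 and 4596 without DB2313, and with it 3487, 3260 and 3475. The groups were far apart, and the 3 DB2313 libraries were nearly equal, at 188.8, 191.1 and 188.9 CPM. Sat1 went from 268 ± 13 to 189.6 ± 1.29 CPM (SD, n = 3 each). Under TMM it fell by 29.2%, with a log2 fold change of -0.50 (standard error 0.04, adjusted p = 9.72e-11, edgeR).

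Promoter sequence from RefSeq (GRCm38.p6) was matched for 4 of the 10 genes, Ass1, Odc1, Sms and Sat1. The stretches upstream of Odc1 and Sms, which were higher in the DB2313 group, are shown beside that of Sat1, which was lower, so that the starts of enzymes that make polyamines can be set against that of the enzyme that removes them. Each is written 5′ to 3′ in the direction of transcription and ends just before the gene start of the count table. Capitals mark the E-box CACGTG, a sequence bound by Myc, and the GC box GGGCGG on either strand, a sequence bound by Sp1. The 171 bases of Odc1 are chr12:17544623-17544793 (plus strand), the 250 bases of Sms are chrX:157492288-157492537 (minus strand) and the 250 bases of Sat1 are chrX:155216450-155216699 (minus strand).
Odc1: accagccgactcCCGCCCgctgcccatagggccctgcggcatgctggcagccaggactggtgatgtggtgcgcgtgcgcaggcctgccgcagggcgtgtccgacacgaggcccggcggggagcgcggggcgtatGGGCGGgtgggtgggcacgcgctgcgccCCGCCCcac
Sms: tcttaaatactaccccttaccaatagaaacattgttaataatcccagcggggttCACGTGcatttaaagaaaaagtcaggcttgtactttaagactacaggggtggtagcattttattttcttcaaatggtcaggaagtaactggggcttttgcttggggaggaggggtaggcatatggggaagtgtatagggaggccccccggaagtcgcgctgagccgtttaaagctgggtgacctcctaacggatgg
Sat1: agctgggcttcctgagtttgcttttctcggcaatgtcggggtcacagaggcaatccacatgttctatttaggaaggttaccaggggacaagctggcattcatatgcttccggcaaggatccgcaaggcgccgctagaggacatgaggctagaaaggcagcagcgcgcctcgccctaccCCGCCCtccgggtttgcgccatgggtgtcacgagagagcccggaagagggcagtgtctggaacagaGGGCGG
The stretch of Odc1 held 3 GC boxes and no E-box, that of Sms held 1 E-box and no GC box, and that of Sat1 held 2 GC boxes and no E-box. The 250 bases before a further RefSeq start of Sms, inside the gene, held 4 matches to the GC box. Those at -176, -172 and -168 from that start each share letters with the next, so they are not separate boxes. A further GC box of Odc1, at -15 from its RefSeq start, lay downstream of the gene start in the count table, outside the stretch shown. In the 250 bases before the RefSeq start of Ass1, 1 E-box and 1 GC box were found, both downstream of the gene start in the count table. Over 32851 promoter windows of 250 bases, 6.02% held the E-box and 32.7% the GC box. The letters GAGGAAG, the core of sequences bound by Spi1, were in 10.6% of all windows and in none of those of the 4 genes. These matches describe the letters and were not read as binding sites. The motifs were searched after the expression values were known. No stretch shown held both motifs, so an E-box and a GC box could not overlap there.

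Levels of different genes were compared per length, as CPM per kilobase of the gene length in the count table. In the control group, Ass1 was the highest at 112 ± 4.03 CPM per kilobase, followed by Sat1 at 96.6 ± 4.7, Odc1 at 72.9 ± 2.23 and Srm at 44.5 ± 2.45 (SD, n = 3). In the DB2313 group, Odc1 came first at 89 ± 1.13 CPM per kilobase, then Sat1 at 68.3 ± 0.465, Ass1 at 56.8 ± 1.89 and Srm at 53.9 ± 3.74 (SD, n = 3). Ass1 and Srm overlapped between libraries in the DB2313 group, and Azin1 and Asl overlapped in the control group at 13.4 ± 0.158 and 12.8 ± 0.454 CPM per kilobase. The lowest places were held by Sms, Arg2, Nos2 and Arg1 in the control group, the last at 0.584 ± 0.17 CPM per kilobase. In the DB2313 group, Nos2 (0.167 ± 0.109) and Arg1 (0.265 ± 0.108) were the lowest and overlapped.

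The direction of most of these differences depended on how the libraries were scaled. Scaling by library size or by the upper quartile kept the sign of all 10 genes and moved the log2 fold changes by about the median shift over all tested genes, 0.094 and 0.064. Azin1 then passed the threshold, at 0.14 and 0.11. Scaling to the summed counts of the T cell markers moved the median of all tested genes by -0.59, and all 10 genes were then lower, Odc1 at -0.30, Srm at -0.31 and Sms at -0.40. Scaling to the summed counts of the macrophage markers moved it by 1.48, and 8 of the 10 genes were then called higher, among them Ass1 at 0.50, Asl at 1.21 and Sat1 at 0.98. Arg1 was at 0.34 and not called there (adjusted p = 0.426, edgeR). That sum rests largely on Lyz2, which averaged 7702 CPM in the control group and had a log2 fold change of -1.89 under TMM. The median log2 fold change of the 20 macrophage markers was -1.01, close to Arg1, Arg2 and Ass1, but the markers were widely spread around it (SD 0.93). A scaling without Lyz2 was not run. Nos2 was lower under each of the 5 scalings, with log2 fold changes from -3.99 with the T cell markers to -1.94 with the macrophage markers. Of all calls, 54.2% were lower under TMM, 36.6% with library size, 41.8% with the upper quartile, 98.5% with the T cell markers and 1.5% with the macrophage markers.

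**Figure D2:**
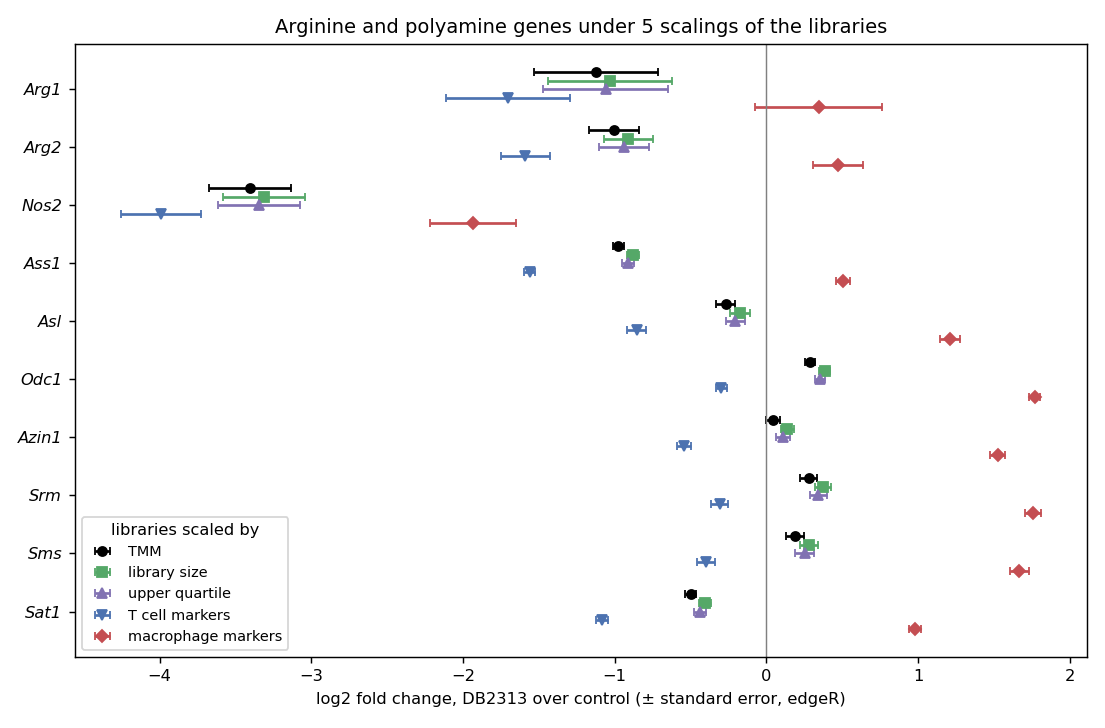
The log2 fold change of DB2313 over control (horizontal axis, ± standard error from edgeR) for each of the 10 genes, with the libraries scaled in 5 ways (symbols). Nos2 stays left of 0 under each scaling, whereas Odc1, Azin1, Srm and Sms turn negative with the T cell markers and all genes but Nos2 turn or stay positive with the macrophage markers.

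Ratios of counts between 2 genes of the same library do not depend on the scaling, and 6 such ratios, chosen after the values were seen, were computed. Sat1 counts per Odc1 count, which set polyamine removal against the first step of synthesis, were 1.05, 1.09 and 1.09 in the control libraries and 0.619, 0.640 and 0.618 in the DB2313 libraries. The ratio was lower in every DB2313 library than in any control library. This is a ratio of counts, not of levels per length. Such a ratio can also shift with the share of each cell type in the RNA, where the 2 genes come from different cells. That share's part in these ratios was not tested. Ass1 counts per Asl count went from 4.34 ± 0.186 to 2.68 ± 0.323, and Nos2 counts per Arg2 count from 1.09 ± 0.132 to 0.209 ± 0.138 (SD, n = 3 each). Odc1 counts per Azin1 count rose from 2.96 ± 0.0716 to 3.51 ± 0.0728 (SD, n = 3 each). The groups did not overlap in these 4 ratios, each with p = 0.1 in a two-sided exact permutation test, the smallest value that 3 against 3 samples allow (0.15 after adjustment over the 6 ratios). Odc1 per count of Oaz1, the antizyme that targets ornithine decarboxylase for degradation, was 0.513 ± 0.0102 and 0.494 ± 0.021 (exact permutation p = 0.2, adjusted 0.24), and Srm per Sms count was 1.57 ± 0.0498 and 1.68 ± 0.176 (exact permutation p = 0.5, adjusted 0.5; SD, n = 3 each). The groups overlapped in both.

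**Figure D3:**
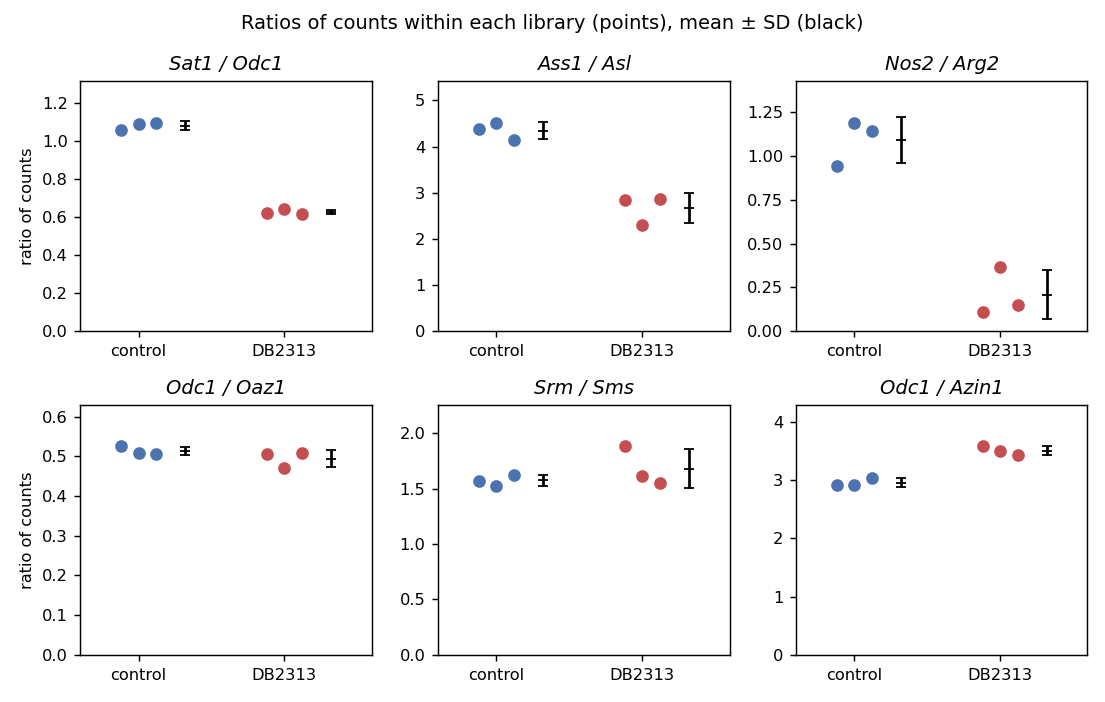
Ratios of counts of 2 genes within the same library (vertical axes, each from 0) for the control (blue) and DB2313 (red) libraries, with the mean ± SD in black. Sat1 per Odc1 went from about 1.08 to 0.626 with little spread, whereas Odc1 per Oaz1 and Srm per Sms overlapped between the groups.

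A wider list of 51 other genes of these pathways was followed, of which 38 passed the filter on low counts. Among these, 14 were higher and 8 were lower, or 57.9%, against 45.4% of all tested genes. Their median log2 fold change was 0.073. The roles below hold 2 to 10 tested genes each, and their counts are to be read against the 20.8% higher and 24.6% lower of all tested genes. Methionine cycle and salvage genes had the most higher members, with 7 of 10. Apart from Ahcy, these genes supply the aminopropyl groups of spermidine and spermine or recover the by-product of that step. Ahcy, which clears S-adenosylhomocysteine, rose from 68.9 ± 3.47 to 102 ± 4.72 CPM, and Mri1 of the salvage pathway from 34.5 ± 2.68 to 50.8 ± 2.61 CPM (SD, n = 3 each). Their log2 fold changes were 0.56 each. The other 5 were Amd1, which makes the aminopropyl donor and whose reads cannot be told fully from its near-identical copy Amd2, at 0.29, and Mat2a, Mat2b, Mtap and Adi1 at 0.16 to 0.23. Apip was the lower gene of this group, at -0.42.

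Of the genes that act beside Nos2, Gch1, the first enzyme of the synthesis of its cofactor tetrahydrobiopterin, fell from 21.2 ± 1.7 to 14.8 ± 1.44 CPM (SD, n = 3 each), a log2 fold change of -0.52 (standard error 0.10). Pts, the next enzyme of that synthesis, was also lower, and Spr, the last, and Nosip were higher, by 0.13 and 0.29 on the log2 scale. The call of Spr was close to the threshold (adjusted p = 0.0476, edgeR). Of the 4 tested genes for urea cycle, ornithine carriers and other arginine enzymes, 3 were lower. These were Gatm and Gamt, which act in turn to make creatine from arginine, at -0.59 and -1.01, and the mitochondrial ornithine carrier Slc25a15 at -0.58. Slc25a29, a mitochondrial carrier of basic amino acids, was higher at 0.38 (adjusted p = 0.0349, edgeR), although its CPM overlapped between the groups. Otc and Cps1, the mitochondrial enzymes of the urea cycle, had 0 counts in all 6 libraries, which allows up to 0.183 CPM, the worth of 3 counts in control replicate 3.

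Of the 7 tested genes of ornithine and proline metabolism, 2 were higher and none lower, or 28.6% called, less than the 45.4% of all tested genes. Aldh18a1, which starts the way from glutamate to proline and ornithine, was higher at 0.22. Oat, which links ornithine to this route, was at -0.061 (adjusted p = 0.266, edgeR). Of the tested antizyme genes Oaz1 and Oaz2 and the antizyme inhibitor Azin2, Oaz1 was called and rose from 483.8 ± 23.1 to 614.1 ± 18.8 CPM (SD, n = 3 each), a log2 fold change of 0.34 (standard error 0.04). Both tested genes of polyamine transport were lower, Atp13a2, a lysosomal polyamine exporter, at -0.49 and Atp13a3 at -0.20. The polyamine oxidases Smox and Paox, at -0.086 and -0.14, were not called (adjusted p = 0.236 and 0.317, edgeR). In the hypusine pathway, in which spermidine modifies the translation factor Eif5a, Dhps rose by 0.31 on the log2 scale, and Eif5a itself was at 0.080 (adjusted p = 0.0545, edgeR). As with the listed genes other than Nos2, all 22 of these calls are relative to the TMM scaling. None of the 14 higher genes was called higher with the T cell markers, and none of the 8 lower genes was called lower with the macrophage markers.

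**Figure D4:**
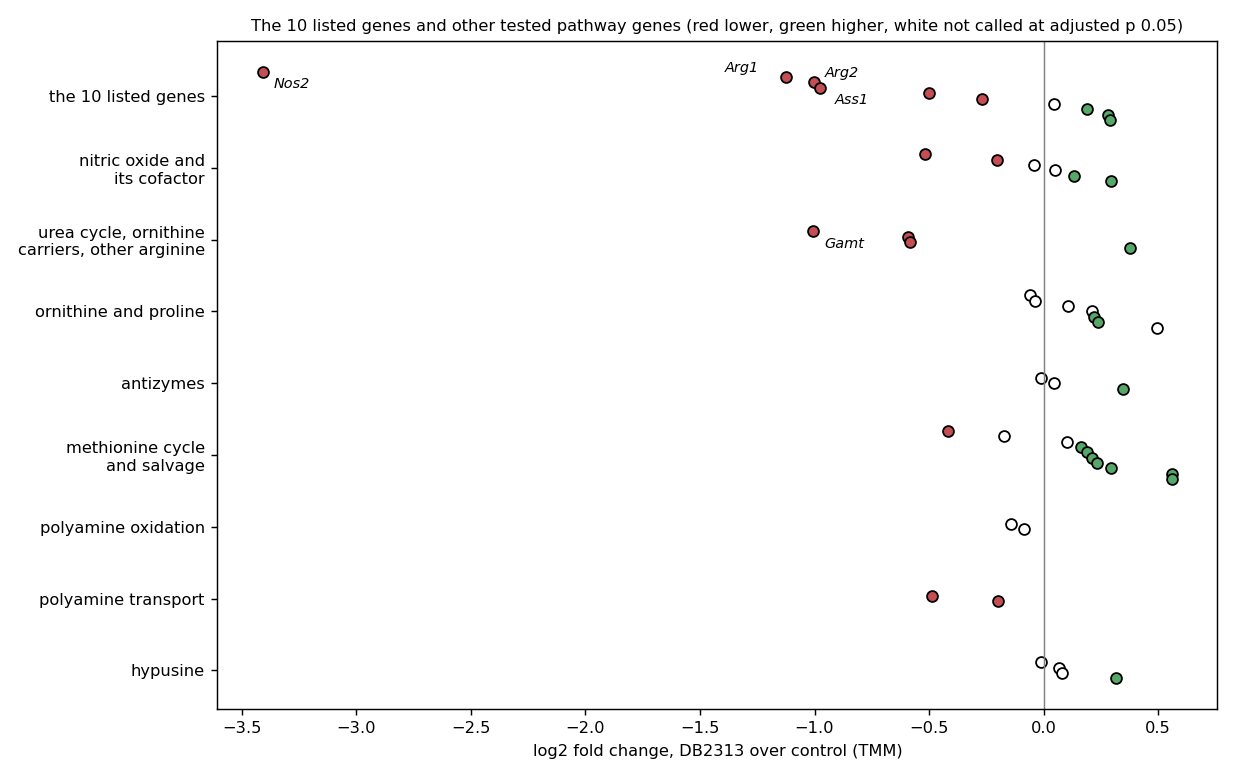
The log2 fold change of DB2313 over control (horizontal axis, TMM) for the 10 listed genes and the 38 other tested pathway genes, grouped by role (vertical axis), with genes called lower in red, called higher in green and not called in white. Methionine cycle and salvage holds 7 green points, none of which is called higher with the T cell marker scaling, and Nos2 stands apart at -3.41.

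Of 8 transcription factors known to act on these genes, 2 were higher and 4 lower, against 20.8% and 24.6% of all tested genes. Myc, an activator of Odc1, went from 73.9 ± 1.06 to 84 ± 3.19 CPM (SD, n = 3 each), with a log2 fold change of 0.18. Irf1, known to act on Nos2, was at -0.0049 (standard error 0.032, adjusted p = 0.916, edgeR). Hif1a and Cebpb, both linked to the macrophage enzymes Arg1 and Nos2, were at -0.25 and -0.19, Stat6 at -0.16 and Stat3 at -0.092. Mycn, at 0.53, was the other gene not called (adjusted p = 0.154, edgeR). All these differences are relative to TMM, since the T cell marker scaling moved the median gene by more than Myc rose, Hif1a and Cebpb were at 1.23 and 1.29 with the macrophage markers, and Cebpb was not called with library size scaling (-0.10).

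Nos2, with the largest change of the 10 genes, was compared with the 9530 protein-coding genes that had at least 10 CPM in the higher group, by the distance between their centred log2 CPM values over the 6 libraries. The nearest were Fpr1 (distance 0.731), Tppp3 (0.877), Cd34 (1.04), Ly6g (1.10) and Aldh1a2 (1.11), with log2 fold changes between -3.92 in Ly6g and -2.97 in Aldh1a2. Fpr1 encodes a formyl peptide receptor of phagocytes, Tppp3 a tubulin-binding protein, Cd34 a surface protein of progenitor cells, Ly6g a neutrophil surface protein and Aldh1a2 an enzyme of retinoic acid synthesis. All of them but Aldh1a2 passed the filter only through the control group, in which they were high, and Nos2 itself stayed under it, so the list is a description alone. This likeness describes 2 groups of 3 libraries, so the distance rests mainly on the size of the difference between the groups.

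The listed genes were set beside the marker lists of the cell types that the cultures could hold. Counts of higher and lower markers are to be read against the 20.8% higher and 24.6% lower of all tested genes. All 20 T cell markers were higher, at 0.32 to 0.74 on the log2 scale around a median of 0.59, and every one of them was above the highest of the 10 listed genes, Odc1 at 0.29. Of the 20 macrophage markers, 17 were lower and 3 higher (Ms4a7, Marco and Trem2), with a median of -1.01 and a wide spread (SD 0.93). Arg1, Arg2 and Ass1 lay -0.11, 0.0084 and 0.037 from that median, whereas Nos2 was below each of the macrophage markers, the lowest of which was at -2.16, but above the neutrophil marker Ly6g at -3.92 and the dendritic cell marker Cd209a at -3.54. Of 10 neutrophil markers 9 were lower, with a median of -1.62, and they took 0.193% to 0.194% of each control library and 0.0724% to 0.0743% of each DB2313 library. Among 7 tested dendritic cell markers 5 were lower (median -0.52; 0.0219% to 0.0227% and 0.0120% to 0.0125% of the counts), and Siglech was at 0 in all libraries. The B cell markers (4 of 6 higher, median 0.47) went from 0.0289% to 0.029% of the counts to 0.0433% to 0.0444%, and the progenitor granule genes (5 of 5 higher, median 0.94) from 0.0479% to 0.05% to 0.0997% to 0.101%. Of the mast cell and basophil markers 3 of 5 were higher (median 0.39) and Cpa3, the most abundant, was lower at -1.31, with 0.092% to 0.0928% and 0.0876% to 0.0891% of the counts. No library of either cell type cultured alone was analysed here, so the counts of the 10 genes were not assigned to a cell type.

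**Figure D5:**
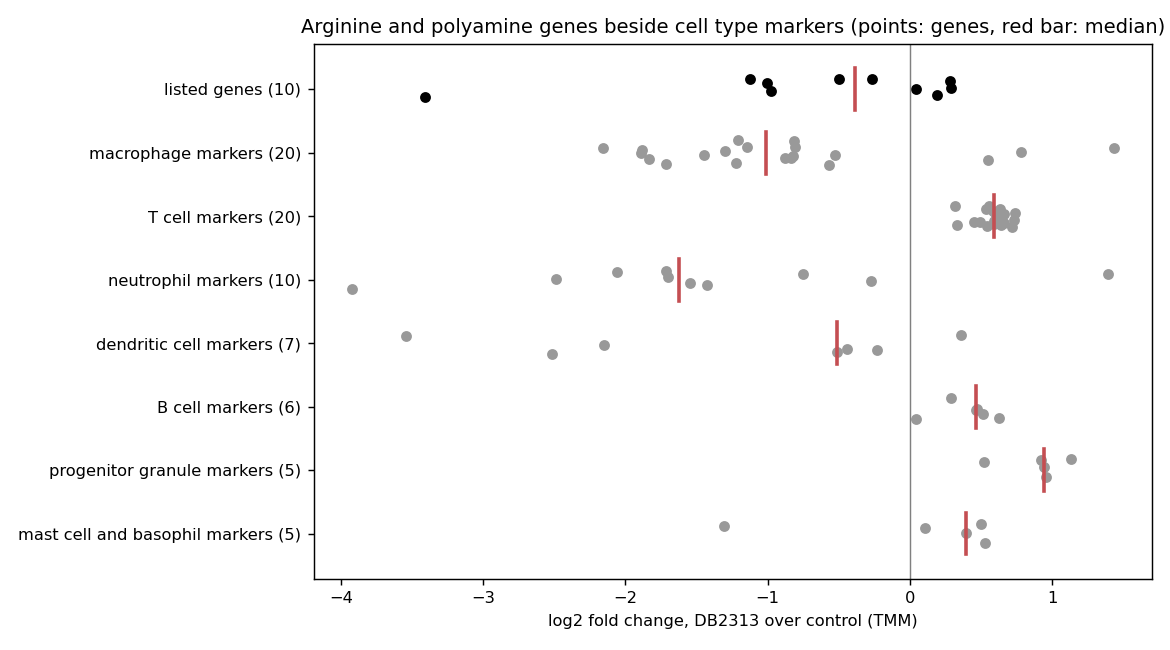
The log2 fold change of DB2313 over control (horizontal axis, TMM) for the 10 arginine and polyamine genes (black points) and the tested genes of 7 marker lists (grey points), with red bars at the medians. The T cell markers form a narrow group around 0.59, to the right of each listed gene, and Nos2 lies left of each macrophage marker.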

How the data were processed

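RNA-seq counts of 6 libraries, 3 control and 3 DB2313, were analysed, with columns matched to samples by GEO's labels. The authors counted reads per gene and deposited raw counts. The paper names LifeScope, whereas the submitters' processing notes list CASAVA 1.8, HISAT2 2.0.5 and featureCounts 1.5.0-p3. Genome build and strandedness are not given in the sources used here, but all 10 listed genes have their GENCODE M21 (GRCm38) coordinates.

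The whole table was fitted with edgeR 4.0.16 in R 4.3.3 (filterByExpr, TMM, glmQLFit, glmQLFTest, Benjamini-Hochberg adjustment over all 14883 tested genes, threshold 0.05). Standard errors were obtained from the fold change and its F statistic. The script was tested on simulated counts. The common biological coefficient of variation was 4.67%. Replicates differed by more than counting noise, with a chi-square per gene of 2.48 to 3.81, so none was counted as a copy. Depth limits Arg1 and Nos2 most. A count of 0 allows up to 3 counts, for counting error only.

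The 10 genes and the lists were chosen with earlier results of these data known. The rule named all 10, up to 2 genes per role of the wider list (adjusted p below 0.05, at least 10 CPM, largest change), and the 5 genes nearest to Nos2. Other genes were named after their values were seen. Some genes of the lists are counted but not reported here by name. Pycr3 is listed under its older symbol Pycrl. Alternatives were DESeq2 1.42.0, other scalings, other filters, protein-coding genes, a replicate block, leaving out each library and a fold threshold, with Sms and Sms-ps summed, and the fold threshold without each library, added later.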

Additional observations from a re-analysis of the deposited data

How the results depend on the processing

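With DESeq2, no filter, protein-coding genes only and the replicate block, the 10 genes kept their direction, and Arg1 with DESeq2 (-1.14) was the only call lost. With at least 10 counts in every sample, Arg1 and Nos2 could not be tested, since their lowest counts were 8. No pairing by replicate number was seen in the counts: same-numbered libraries deviated from their group means with correlations of 0.0138, -0.00389 and 0.0187 across genes. Such values cannot show whether same-numbered samples were prepared together, which the sources used here do not say. With the replicate block, 3 listed genes were higher and 6 lower, and 2912 and 3525 of all genes, against 3096 and 3667 without it.

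Scaling decided the direction of most differences. With the T cell markers, 0 listed genes were called higher and 10 lower, 0 and 32 other pathway genes, 3 T cell markers higher, and 175 and 11503 of all genes. Odc1 was then at -0.30, Azin1 at -0.54, Srm at -0.31, Sms at -0.40, Nosip at -0.29, Aldh18a1 at -0.36, Oaz1 at -0.24, Ahcy at -0.026, Mri1 at -0.028 and Dhps at -0.27. With the macrophage markers, 8 listed genes were called higher and 1 lower, 38 and 0 other pathway genes, 5 macrophage markers lower, and 13995 and 213 of all genes. Arg1 was then at 0.34, Arg2 at 0.47, Ass1 at 0.50, Asl at 1.21, Azin1 at 1.52, Sat1 at 0.98, Gch1 at 0.96, Gatm at 0.89, Slc25a15 at 0.90, Atp13a2 at 0.99, Atp13a3 at 1.28, Hif1a at 1.23 and Cebpb at 1.29. Azin1 was called at 0.14 with library size scaling, under which 4931 genes were higher and 2852 lower, and at 0.11 with the upper quartile. These changes follow from the construction of each scaling, and the macrophage one rests largely on Lyz2. Which scaling reflects the cells was not tested.

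With an absolute log2 fold change over 1 required as well, 0 listed genes were higher and 3 lower, and 204 and 789 of all genes, since this tightens the threshold. Over the 6 fits that each left out a library, 2 to 3 listed genes were higher and 5 to 6 lower, with Arg1 from -1.51 to -0.94 and Sms from 0.16 to 0.22. DESeq2 called 2386 genes higher and 3197 lower.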
